A study of Rattus norvegicus with 2 samples.

Results

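The genes described here are the enzymes of glycolysis and of the pentose phosphate pathway together with members of the hypoxia pathway, 34 genes named by symbol. A gene was counted as measured when the deposited transcript table held at least 1 row with its symbol, and the rows of a symbol were summed. By this rule 32 of the 34 genes were measured, over 50 transcripts, in a table of 15409 symbols and 20367 transcripts. Pgd, the second NADPH-forming enzyme of the pentose phosphate pathway, and Egln1, the main oxygen-sensing prolyl hydroxylase, had no row under their symbols, their RefSeq synonyms or their Ensembl identifiers and were not analysed here.

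RNA was sequenced from the rat basophilic leukaemia line RBL-2H3, which carries the high-affinity IgE receptor and serves as a mast cell model. In the treated culture, fine particles (PM2.5) were combined with IgE and its antigen DNP-HSA; the other culture had normal saline. The labels state neither a dose unit nor a duration, and they leave unsaid whether IgE and antigen were also added to the saline culture, so particles, IgE and antigen cannot be told apart here. Each condition is 1 library, so the differences have no replicates behind them and the conditions could not be tested against each other.

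Glycolysis splits glucose into pyruvate and yields ATP without oxygen. Hexokinases and phosphofructokinases are its controlled entry steps, and lactate dehydrogenase and pyruvate dehydrogenase compete for its product. The pentose phosphate pathway draws on the same glucose 6-phosphate to make NADPH and ribose phosphate. HIF-1, whose alpha subunit is encoded by Hif1a, is degraded when oxygen is present and otherwise activates many genes, among them glycolytic ones. Antigen-stimulated mast cells are known to use glycolysis during degranulation and cytokine production.

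The treated library held 3964955 reads and the saline library 7279671, so the saline library was 1.84 times as deep. Values are normalised counts, that is reads divided by a size factor per library, and 1 read was worth 1.65 normalised counts in treated and 0.867 in saline cells. A normalised count is not divided by transcript length, so each gene is compared only with itself across the libraries. A fold is the log2 ratio of treated to saline normalised counts, each with 1 added. Brackets hold exact 95% Clopper-Pearson intervals of the ratio without the added 1. These cover counting error only and not the spread between cultures, and reads are not independent molecules. Genes are called higher or lower from 2-fold on, a log2 fold of 1 or more above or below 0, if either library had a normalised count of 1 or more. Mast cell marker genes had reads in both libraries, with the IgE receptor subunit gene Ms4a2 at 1923 in treated and 1113 in saline cells and Kit at 8985 and 10361. Of 11 mast cell markers 10 were measured, of 6 macrophage markers 4, of 8 fibroblast and epithelial markers 4 and of 6 lymphocyte markers 0. The mast cell markers were not all level. Of the 10, 1 was higher and 1 lower, beside 11.9% and 18.7% of all symbols. These were Cpa3 at 1.74 (1.47 to 2.02, 308 against 175 reads) and Hdc at -1.07 (-1.19 to -0.95, 713 against 2851 reads). Cma1 had only 8 against 17 reads. The summed macrophage markers stood at 704 in treated and 1471 in saline cells, mostly from Csf1r (472 and 1215), while Cd68 had 0 against 19 reads. Cd14 (193 and 198) and Adgre1 (38.0 and 41.6) were close to level, so the macrophage markers did not all differ alike. All 4 measured macrophage markers lay below 0, and their summed log2 fold was -1.06 (-1.22 to -0.91). Their part in the results was not tested. The summed fibroblast and epithelial markers stood at 325 in treated and 232 in saline cells. In bulk RNA, fewer cells of a kind and less RNA per cell cannot be told apart.

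As a set, the 32 measured genes differed little between the libraries. Their grouping by place in the pathway was made after the values were seen, so no place is singled out by the few past 2-fold. Of the 32, 4 genes were higher in the treated library (Ldhb, Pdha1, Rpe and Adm) and 2 were lower (Hk2 and Pfkfb4). By the same rule 11.9% of all 15409 symbols were higher and 18.7% were lower, so 4 of 32 was near the background and 2 of 32 was below it. The interval of each gene called among the 32 also held values short of 2-fold. The median log2 fold of the measured genes was 0.046, against -0.099 for all symbols, and 17 of the 32 lay above 0, against 44.7% of all symbols. All 32 passed the minimum of 1, and 28 reached a normalised count of 50 in 1 library. Among those 28, 2 were higher, 1 was lower and 14 lay above 0, beside 7.47%, 8.59% and 47.9% of the 9469 symbols that reached the same level. The genes just past 2-fold were Hk2 (-1.12) and Pdha1 (1.15), and those just short of it were Vegfa (-0.86) and Pfkfb3 (0.83).

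**Figure D1:**
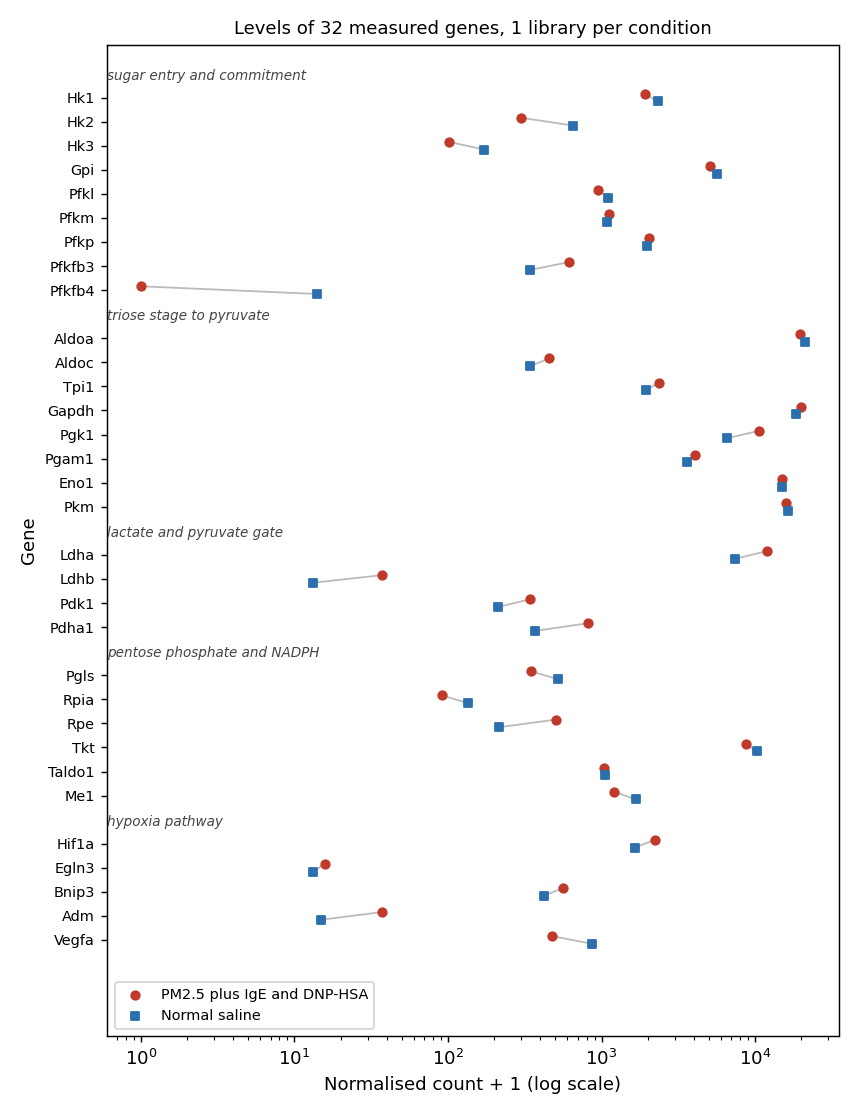
Normalised count plus 1 on a log axis for the 32 measured genes, ordered by their place in the pathway, with 1 circle for the PM2.5 plus IgE and DNP-HSA library and 1 square for the normal saline library per gene. The enzymes from Aldoa to Pkm, Pgk1 excepted, lie close together in the 2 libraries, while Hk2 and Pfkfb4 lie to the left in the treated library and Ldha, Pdha1 and Rpe to the right.

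Both genes on the lower side, Hk2 and Pfkfb4, act at the entry of glucose into the pathway or on its control. There 3 of 9 genes lay above 0, beside 44.7% of all symbols, from which nothing is read for so few genes grouped after their values were seen. Hexokinase phosphorylates glucose and so traps it in the cell. Hk2, its inducible isozyme, had a normalised count of 299 in the treated library and 649 in the saline library, a log2 fold of -1.12 (-1.36 to -0.88, 181 against 748 reads). Hk1, the constitutive isozyme, stood at 1904 in treated and 2326 in saline cells, a fold of -0.29 (-0.39 to -0.19). Hk2 therefore differed more than Hk1, and its share of the reads of the pair was 13.6% (11.8 to 15.5) in treated and 21.8% (20.4 to 23.2) in saline cells. This share does not depend on how the libraries were scaled. The third isozyme, Hk3, stood at 101 in treated and 171 in saline cells, a fold of -0.76 (-1.20 to -0.34), but its reads came from different transcripts in the 2 libraries. Glucose phosphate isomerase, Gpi, stood at 5097 in treated and 5605 in saline cells, a fold of -0.14 (-0.20 to -0.075).

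Phosphofructokinase, the committing step, differed less between the libraries than Hk2 did. Its liver-type subunit Pfkl had a fold of -0.22 (-0.36 to -0.077), with 948 in treated and 1104 in saline cells. The muscle-type subunit Pfkm (1121 and 1077) and the platelet-type subunit Pfkp (2025 and 1977) had folds of 0.058 (-0.079 to 0.19) and 0.035 (-0.067 to 0.14), both with intervals that held 0. Pfkp was on the other side of 0, at -0.018, when the library totals were made equal.

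Pfkfb enzymes make and remove fructose 2,6-bisphosphate, the activator of phosphofructokinase. The summed counts of Pfkfb3 and Pfkfb4 differed in opposite directions, but each with a limit given below. Pfkfb2, of the same family, was close to level at 0.042 (-0.35 to 0.43, 86 against 159 reads). Pfkfb3, which favours synthesis, stood at 609 in treated and 342 in saline cells, a fold of 0.83 (0.63 to 1.04, 369 against 394 reads). This sum was above 0 only through 1 of its 3 transcripts; without transcripts that had 0 reads in 1 library, a setting chosen after the data were examined, Pfkfb3 was at -0.17. Pfkfb4 had 0 reads in the treated library against 15 in the saline library. With 3 treated reads taken as the floor, it was 2.63-fold lower, but the exact interval of its log2 ratio reaches up to -0.91, short of 2-fold. Over all 9 genes of sugar entry and commitment, 0 were higher and 2 lower, beside 11.9% and 18.7% of all symbols. The median log2 fold was -0.22, against -0.099 for all symbols. The summed normalised count of the 9 genes was 12105 in treated and 13263 in saline cells.

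From aldolase to pyruvate kinase no gene passed 2-fold, though Pgk1 (0.71) and Aldoc (0.42) lay further from 0 than the rest. In this stretch 0 of 8 genes were higher or lower, beside 11.9% and 18.7% of all symbols. Of the better covered symbols, those reaching 50 in either library, 7.47% were higher and 8.59% lower. A count of 0 among so few genes therefore says little. The folds ran from -0.11 to 0.71. Gapdh, the glyceraldehyde phosphate dehydrogenase often used as a reference gene, stood at 19912 in treated and 18451 in saline cells, a fold of 0.11 (0.078 to 0.14). Aldoa, the muscle-type aldolase, stood at 19632 and 21193, a fold of -0.11 (-0.14 to -0.079). Eno1 (14898 and 15052), the enolase, and Pkm (15768 and 16265), the pyruvate kinase, were at -0.015 (-0.052 to 0.022) and -0.045 (-0.080 to -0.0091). These 2 lay within 0.05 of 0, and both were above 0 when the median of all symbols was set to 0, at 0.084 for Eno1 and 0.054 for Pkm.

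Phosphoglycerate kinase, the first ATP-forming enzyme of the pathway, stood apart from its neighbours. Pgk1 had a normalised count of 10670 in treated and 6514 in saline cells, a fold of 0.71 (0.66 to 0.76, 6460 against 7510 reads). The next enzyme, the mutase Pgam1, stood at 4055 in treated and 3616 in saline cells, a fold of 0.17 (0.093 to 0.24). Triose phosphate isomerase, Tpi1, was at 0.28 (0.19 to 0.38), with 2362 in treated and 1942 in saline cells. The interval of Pgk1 thus lay above those of both enzymes. Aldoc, the brain-type aldolase, stood at 456 in treated and 340 in saline cells, a fold of 0.42 (0.20 to 0.65), and its share of the reads of both aldolases was 2.27% (2.01 to 2.55) in treated and 1.58% (1.43 to 1.74) in saline cells. Aldoart2, a retrotransposed copy related to Aldoa, had a row of its own with 172 in treated and 210 in saline cells. Many glycolytic genes have processed copies in the genome, and the sources used here do not state how reads shared with such copies were counted.

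All 19 glycolysis genes together, lactate dehydrogenases included, took 1.71% (1.70 to 1.72) of the treated reads and 1.65% (1.64 to 1.66) of the saline reads. Of these 19 genes 1 was higher and 2 were lower, beside 11.9% and 18.7% of all symbols. The higher one, Ldhb, had 22 against 14 reads, and Pfkfb4 among the lower had 0 against 15. Above 0 lay 10 of the 19, against 44.7% of all symbols. The median log2 fold of the 19 was 0.035, against -0.099 for all symbols. In normalised counts, the largest differences among the 19 were those of Ldha and Pgk1 above saline and that of Aldoa below it.

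**Figure D2:**
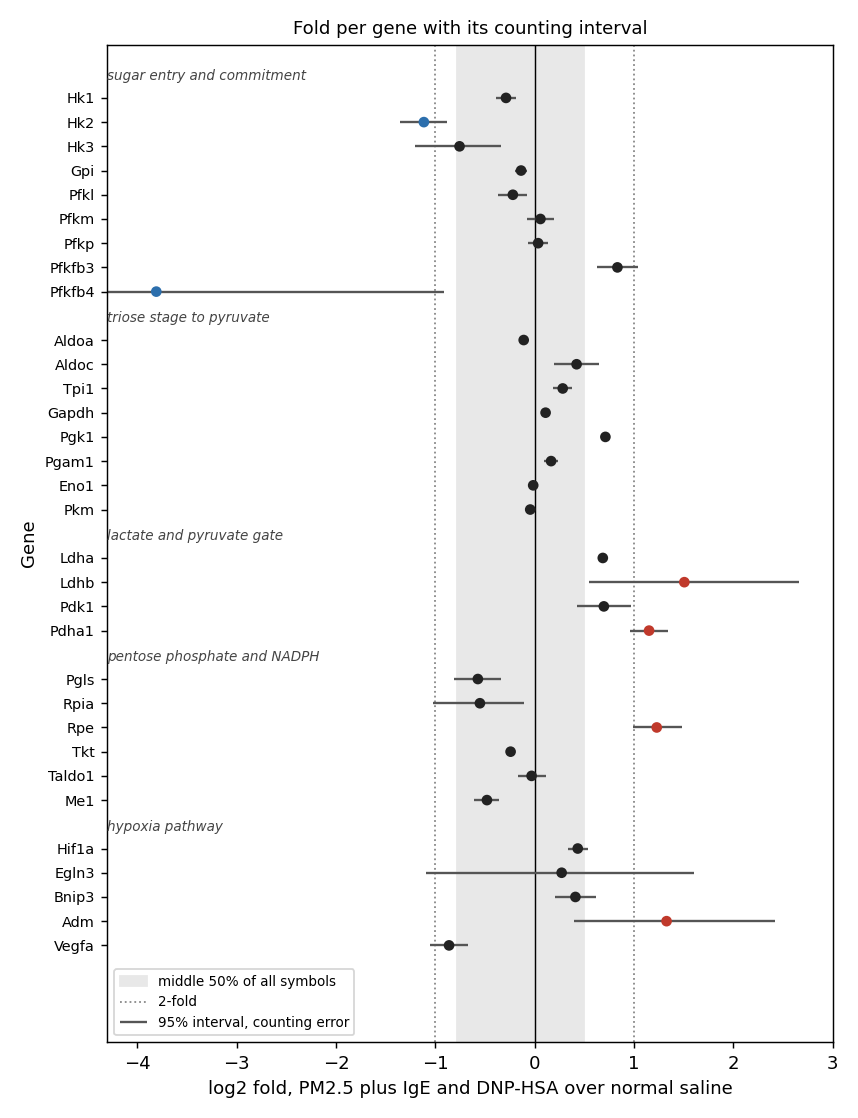
Log2 fold of the PM2.5 plus IgE and DNP-HSA library over the normal saline library for the 32 measured genes, with exact 95% intervals for counting error. Red points are at least 2-fold higher (4 genes) and blue points at least 2-fold lower (2 genes), dotted lines mark 2-fold, the grey band holds the middle 50% of all symbols (-0.79 to 0.50), and the interval of Pfkfb4, with 0 treated reads, has no lower end.

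The 4 genes at the fate of pyruvate were all above 0, the only one of the 5 role groups for which this held. Of all symbols 44.7% lay above 0. Ldha, the lactate dehydrogenase subunit that favours lactate formation, stood at 11974 in treated and 7444 in saline cells, a fold of 0.69 (0.64 to 0.73, 7250 against 8583 reads). Ldhb, the heart-type subunit, stood at 36.3 in treated and 12.1 in saline cells, a fold of 1.51 (0.55 to 2.66, 22 against 14 reads). Ldhb was 0.303% (0.190 to 0.458) of the lactate dehydrogenase reads in treated and 0.163% (0.0891 to 0.273) in saline cells, and these intervals overlap, so a difference between the 2 subunits was not detectable at this depth. Pdha1, the catalytic alpha subunit of pyruvate dehydrogenase, stood at 814 in treated and 366 in saline cells, a fold of 1.15 (0.96 to 1.34, 493 against 422 reads). Pdk1, the kinase that switches this enzyme off, stood at 344 in treated and 212 in saline cells, a fold of 0.70 (0.43 to 0.97). The enzyme and its inhibiting kinase were thus both higher in value, though only Pdha1 passed 2-fold. This grouping was made after the values were seen and its direction supports nothing further.

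The core of the hypoxia response element, to which HIF-1 binds, is ACGTG or GCGTG, and both were searched on both strands in the 250 bases before each start site in the RefSeq promoter table of GRCr8. The palindrome CACGTG, which is also the E-box of other factors, holds ACGTG on each strand and counts as 2 matches. RefSeq promoters were found for 32 of the 34 genes, Pgk1 and Pgls being without one, with 37 entries because some genes have several. At least 1 match stood in 21 of the 37 entries, against 36.7% of all 33469 promoters. Stretches are printed for the 4 genes at the fate of pyruvate, grouped after their values were seen, and for Bnip3, a known HIF-1 target picked for its 4 matches close together. Each is 61 bases that hold as many matches as any other stretch in the window, 5′ to 3′ on the strand of the gene, with the matches in capitals.
Ldha, chr1:106507984-106508044, plus strand: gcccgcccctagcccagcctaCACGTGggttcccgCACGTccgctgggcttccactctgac
Ldhb, chr4:177177479-177177539, minus strand: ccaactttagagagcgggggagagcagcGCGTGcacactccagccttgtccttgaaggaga
Pdk1, chr3:77113432-77113492, plus strand: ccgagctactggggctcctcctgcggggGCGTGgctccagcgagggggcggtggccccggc
Pdha1, chrX:38509046-38509106, plus strand: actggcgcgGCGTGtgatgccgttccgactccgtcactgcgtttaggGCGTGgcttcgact
Bnip3, chr1:203155029-203155089, minus strand: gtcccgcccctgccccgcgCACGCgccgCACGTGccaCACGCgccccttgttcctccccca
The stretch of Ldha begins 108 bases before its start site and holds 3 of its 4 matches, 2 of them in 1 CACGTG, and that of Bnip3 begins 127 bases before its start site and holds all 4. The stretch of Pdha1 holds 2 of its 3 GCGTG, that of Pdk1 holds 1 of 2, and that of Ldhb holds the 1 in its window. At least 1 GCGTG stood in 25.9% of all promoters and in 15 of the 37 entries. Genes with folds below 0 held matches too, such as 2 in Pfkl, 2 in Me1 and 3 in Taldo1, while others below 0 held none. No link between matches and direction is read from these stretches. CACGTG itself stood in 5.59% of all promoters and in 4 of the 37 entries. In the windows of Adm, Egln3 and Vegfa, and in that of Hk2, these letters were not found, which says nothing of matches elsewhere. Matches are strings of letters and not measured binding sites.

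Among the genes of the pentose phosphate pathway and NADPH supply, 1 of 6 measured members lay above 0, beside 44.7% of all symbols. That one was called higher, with an interval that begins just under 2-fold. Rpe, the epimerase that turns ribulose 5-phosphate into xylulose 5-phosphate, stood at 505 in treated and 215 in saline cells, a fold of 1.23 (0.99 to 1.48, 306 against 248 reads). Rpia, the isomerase that turns the same substrate into ribose 5-phosphate, stood at 90.8 in treated and 134 in saline cells, a fold of -0.55 (-1.03 to -0.10, 55 against 154 reads). The 2 enzymes that share this substrate thus had intervals that did not overlap. Pgls, the lactonase of the oxidative branch, was at -0.57 (-0.81 to -0.34), with 347 in treated and 516 in saline cells.

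Most reads of this group came from transketolase. Tkt, which passes carbon units back towards glycolysis, stood at 8655 in treated and 10238 in saline cells, a fold of -0.24 (-0.29 to -0.20). Its partner transaldolase, Taldo1, stood at 1036 and 1058, a fold of -0.031 (-0.17 to 0.11), and at 0.067 when the median of all symbols was set to 0. Me1, the cytosolic malic enzyme that also yields NADPH, stood at 1201 in treated and 1676 in saline cells, a fold of -0.48 (-0.61 to -0.36). The median over the 6 genes was -0.36, and their summed share of reads was 0.181% (0.177 to 0.185) in treated and 0.219% (0.216 to 0.223) in saline cells. The intervals of these shares do not overlap, and Tkt supplied 5240 of the 7165 treated and 11804 of the 15953 saline reads.

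Hypoxia pathway genes did not move as a block. Hif1a stood at 2225 in treated and 1647 in saline cells, a fold of 0.43 (0.33 to 0.54, 1347 against 1899 reads). Its level says nothing of HIF-1 protein, which is controlled mainly by degradation. Bnip3, a mitochondrial protein of mitophagy and a HIF-1 target, stood at 562 in treated and 422 in saline cells, a fold of 0.41 (0.21 to 0.61). Adm, the vasodilator peptide adrenomedullin, stood at 36.3 in treated and 13.9 in saline cells, a fold of 1.33 (0.39 to 2.42, 22 against 16 reads). Adm passed 2-fold, but its interval begins well below that. Egln3, a prolyl hydroxylase that HIF-1 itself induces, had only 9 against 14 reads, and its interval of -1.10 to 1.60 gave no direction.

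Vegfa, the angiogenic growth factor and a textbook HIF-1 target, lay on the other side. Its summed normalised count was 477 in treated and 868 in saline cells, a fold of -0.86 (-1.06 to -0.67, 289 against 1001 reads). Hif1a and Vegfa thus differed in opposite directions, with intervals that lay on different sides of 0. Over the 5 measured hypoxia genes the median was 0.41, against -0.099 for all symbols. Of the 5, 1 gene (Adm) was higher and 0 lower, beside 11.9% and 18.7% of all symbols.

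Known HIF-1 targets among the 32 genes lay on both sides of 0. Of examples chosen after their values were seen, Ldha (0.69), Pgk1 (0.71), Pdk1 (0.70), Bnip3 (0.41) and Adm (1.33) lay above 0. Hk2 (-1.12) and Vegfa (-0.86) lay below 0, as did Pfkfb4, which had 0 treated reads.

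Transcripts of 1 gene did not always share a direction. Of the 32 genes, 21 had 1 transcript row and 11 had several, and 8 had 2 or more transcripts with at least 50 reads each over both libraries. Vegfa had 6 rows. Its 2 transcripts with most reads were lower in the treated library, ENSRNOT00000026559 with 197 against 535 at -1.44 (-1.74 to -1.16) and ENSRNOT00000044163 with 99.1 against 326 at -1.71 (-2.14 to -1.32). By contrast ENSRNOT00000042790 and ENSRNOT00000083811 had 61 and 45 treated reads and 0 saline reads. Against a floor of 3 saline reads they were 38.7-fold and 28.6-fold higher. Their intervals begin below these folds, at log2 ratios of 4.93 and 4.48. The sum of -0.86 thus joins opposite directions, and without the rows that had 0 reads in 1 library Vegfa was at -1.53.

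Hk3 and Pfkfb3 showed the same kind of split. All 61 treated reads of Hk3 were in ENSRNOT00000031935 and all 197 saline reads in ENSRNOT00000079850, with 0 in the other library each time. Of the 369 treated reads of Pfkfb3, 185 were in ENSRNOT00000051067, which had 0 saline reads. It was 117-fold higher against the floor, and its interval begins below that fold, at a log2 ratio of 6.56. Its transcript ENSRNOT00000025731 was close to level at -0.083 (-0.35 to 0.18, 175 against 353 reads). Aldoa had 1 such transcript, ENSRNOT00000087928, with 61 against 0 reads, but ENSRNOT00000080988 made up 99.0% of its level in treated and 99.4% in saline cells.

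Such rows were rare in the table. Transcripts with 0 saline reads and at least 20 treated reads made up 0.776% of all transcripts, and 5 of the 50 transcripts described here, in 4 genes. Those with 0 treated reads and at least 20 saline reads made up 2.82%, and 2 of the 50, in Hk3 and Pfkm. The saline library, which had 0 reads of 5 transcripts with 45 to 185 treated reads, was the deeper one. The assignment of reads to overlapping transcripts is not described in the sources used here, and its part in these splits was not tested.

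Splice forms with reads in both libraries differed less. Pyruvate kinase Pkm had 2 transcripts with at least 3753 reads each in both libraries. ENSRNOT00000015332 held 60.7% (59.7 to 61.7) of the Pkm reads in treated and 54.7% (54.0 to 55.4) in saline cells, and ENSRNOT00000083666 held the rest. The table does not say which of the known pyruvate kinase forms each one encodes. For Me1, the minor transcript ENSRNOT00000078977 held 22.6% (19.6 to 25.8) in treated and 10.2% (8.88 to 11.6) in saline cells, so that it was at 0.66 while the major ENSRNOT00000013244 was at -0.69. In Rpe both transcripts with over 50 reads were higher, ENSRNOT00000017197 at 1.51 (1.12 to 1.94) and ENSRNOT00000079495 at 1.11 (0.79 to 1.44). Hif1a came almost wholly from ENSRNOT00000049725, which was at 0.47 (0.36 to 0.57).

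**Figure D3:**
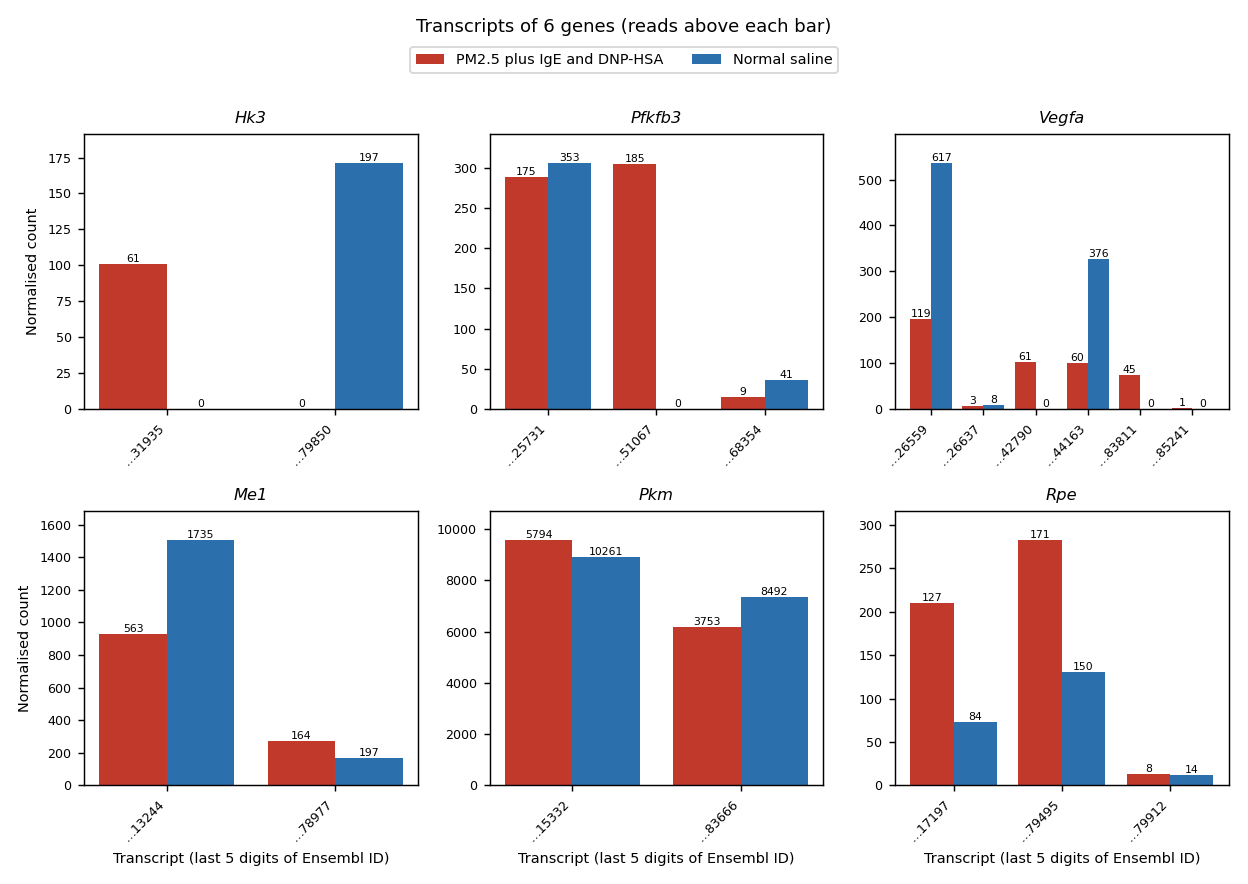
Normalised counts of the transcripts of 6 genes in the PM2.5 plus IgE and DNP-HSA library (red) and the normal saline library (blue), with the reads behind each bar written above it. Hk3 has its 61 treated and 197 saline reads in different transcripts, Pfkfb3 has 1 transcript with 185 treated and 0 saline reads, and the 2 transcripts of Rpe with most reads are higher in the treated library.

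In the authors' deposited table, 0 of these 50 transcripts had a p-value under 0.05, against 0.319% of all transcripts, and 0 were among the 57 transcripts that the authors selected. The lowest p-value of a transcript described here in the authors' deposited table was 0.0929, for Vegfa ENSRNOT00000044163. The adjusted p-value listed for it there was 0.920, which is also the lowest of any transcript in the authors' deposited table.

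Further genes of the same pathways were taken from lists drawn up with earlier results of these data known. Of 30 other genes of glycolysis, sugar transport and glycogen, 25 were measured, 4 were higher and 4 lower by the size rule, beside 11.9% and 18.7% of all symbols. Their median was -0.26, against -0.099 for all symbols. Of these, Pfkfb1 (0 against 10 reads) was under 2-fold when set against the floor, and Gapdhs passed on 3 against 2 reads. The lowest well-covered gene was Slc16a3, the lactate and proton exporter of glycolytic cells, at -1.68 (-1.93 to -1.44), with 268 in treated and 858 in saline cells. The glucose transporter Slc2a3 stood at 7669 in treated and 11590 in saline cells, a fold of -0.60 (-0.64 to -0.55), and Slc2a1 was at -0.19 (-0.27 to -0.11), with 2857 in treated and 3262 in saline cells. Slc2a3 and Slc2a1 thus lay on the same side of 0 as the summed Hk1, Hk2 and Hk3. Higher were Gbe1, the glycogen branching enzyme, at 1.40 (0.97 to 1.86), with 173 in treated and 65.0 in saline cells, and Ugp2, which makes UDP-glucose, at 1.22 (1.05 to 1.39), with 1054 in treated and 453 in saline cells.

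Among further genes of pyruvate oxidation, Dld and Mpc1 were higher. Of 12 listed genes 11 were measured, 3 were higher and 0 lower, beside 11.9% and 18.7% of all symbols, and 1 of these 3, Pdk4, rests on 2 against 0 reads and was under 2-fold when set against the floor. In this list 9 of the 11 lay above 0, against 44.7% of all symbols, and the median was 0.56. Dld, the dehydrogenase subunit shared by several mitochondrial complexes, stood at 629 in treated and 242 in saline cells, a fold of 1.38 (1.15 to 1.61). Mpc1, a subunit of the mitochondrial pyruvate carrier, stood at 266 in treated and 124 in saline cells, a fold of 1.09 (0.77 to 1.44). The beta subunit gene Pdhb, which pairs with Pdha1, was at 0.58 (0.38 to 0.79), with 571 in treated and 382 in saline cells. Exceptions were Pdhx, a binding subunit of the complex, at -0.18 (-0.49 to 0.11), and Pdp1, the phosphatase that opposes Pdk1, at -0.91 (-1.65 to -0.26, 24 against 87 reads).

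Other genes of NADPH supply gave 0 higher and 1 lower among 11 measured of 13, beside 11.9% and 18.7% of all symbols, the lower one being Tktl1 (0 against 5 reads), which gives no bound because its saline level is under the treated floor. Their median was -0.029. Nadk, the kinase that makes NADP from NAD, stood at 1115 in treated and 1143 in saline cells, a fold of -0.04 (-0.17 to 0.10). Idh2, the mitochondrial NADPH-forming isocitrate dehydrogenase, was at -0.30 (-0.40 to -0.20), with 1805 in treated and 2219 in saline cells. Larger positive values belonged to Prps2, which makes the ribose donor of nucleotide synthesis, at 0.82 (0.55 to 1.10, 211 against 227 reads), and to Me2, the mitochondrial malic enzyme, at 0.82 (0.61 to 1.04, 348 against 374 reads). Values below 0 were those of H6pd (-0.70, 22 against 69 reads), which forms NADPH in the endoplasmic reticulum, and of Shpk (-0.61, 31 against 91 reads), the sedoheptulose kinase.

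The further hypoxia genes gave counts near the background. Of 30 listed, 26 were measured, 3 were higher and 4 lower, beside 11.9% and 18.7% of all symbols, and the median was -0.050, against -0.099. Vldlr (2 against 0 reads) among the higher and P4ha2 (0 against 3 reads) among the lower rest on too few reads for a 2-fold bound. Txnip, an inhibitor of glucose uptake that glucose itself induces, stood at 13435 in treated and 6122 in saline cells, a fold of 1.13 (1.09 to 1.18). Bnip3l, the mitophagy receptor related to Bnip3, stood at 827 in treated and 367 in saline cells, a fold of 1.17 (0.98 to 1.36). On the lower side, the secreted Stc2 stood at 11.6 in treated and 101 in saline cells, a fold of -3.02 (-4.47 to -2.03). Angptl4, a lipase inhibitor with 0 treated and 20 saline reads, was 3.50-fold lower against the floor. The interval of its log2 ratio reaches nearer to level, up to -1.37. Ddit4, a stress gene named here after its value was seen, was at -1.53 (-1.82 to -1.25). Ndrg1, like Txnip one of the 2 genes of this list with the highest mean normalised counts, stood at 3942 in treated and 3671 in saline cells, a fold of 0.10 (0.03 to 0.18).

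**Figure D4:**
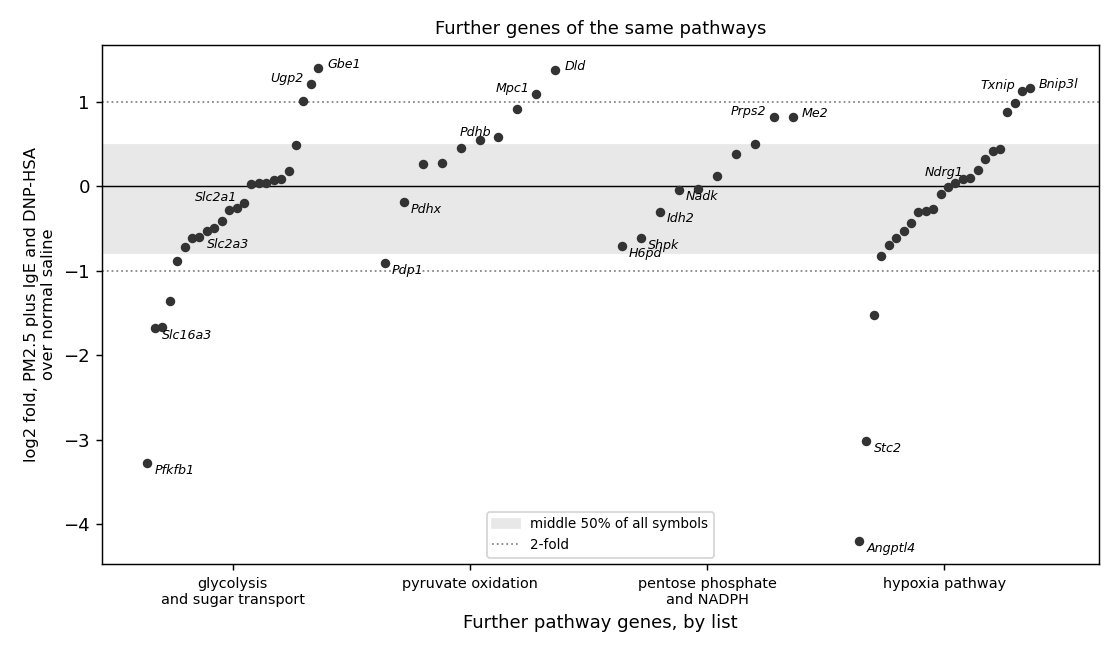
Log2 fold of the PM2.5 plus IgE and DNP-HSA library over the normal saline library for further genes of 4 pathway lists that reached a normalised count of 5 in either library, sorted within each list, with the genes named by rule labelled. Dotted lines mark 2-fold and the grey band the middle 50% of all symbols (-0.79 to 0.50); Dld (1.38) and Mpc1 (1.09) are the highest of the pyruvate oxidation list and Slc16a3 (-1.68) lies among the lowest of the glycolysis list.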

How the data were processed

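Strand-specific TruSeq libraries were made from total RNA, per the labels' protocols. FastQC, Cuffnorm, STAR 2.5 and DESeq 1.22.1 are listed in the submitters' processing notes, which give no order; build, annotation and counting are not described in the sources used here. Each deposited value is a log2 expression value of 1 transcript. After the log2 was undone and 1 subtracted, 100% of values per library lay within 1e-06 reads of a multiple of 1 fixed step. They were therefore read as counts over a size factor (0.605 treated, 1.15 saline), plus 1, and the reads were recovered. The authors' deposited p-values were used only as listed; their fold runs saline over treated and was not printed. The table of selected transcripts served only for membership, and 6 further columns repeating the values were not used.

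Rows were summed by symbol; 1276 rows had none, and no gene described here joined several gene identifiers. Members, lists and naming rules (all members; per further list the 2 largest differences each way with a value of at least 5 and the 2 highest means) were chosen with earlier results of these data known, and the split into 5 roles after the values were seen. An item of the further list on NADPH supply is not reported here, and that list's counts and median leave it out. A planned comparison of levels per coding length was not made, since no protein table was used here. Bounds use a floor of 3 reads in the library at 0, and the exact intervals reach nearer to level than these bounds. The procedure was tested on simulated data. Computations ran in Python 3.11.15 (SciPy 1.17.1, pandas 2.3.3, NumPy 2.4.6); figures used Matplotlib 3.10.9.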

Additional observations from a re-analysis of the deposited data

How the results depend on the processing

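Folds were recomputed under 11 other settings: a pseudocount of 5 or 0.1, a filter of 50 or none, library totals made equal, the median of all symbols set to 0, TMM scaling, the transcript of highest mean alone, lncRNA rows left out and, added after the data were examined, at least 10 reads and transcripts with 0 reads in 1 library left out. With a filter of 50 in place of 1, 2 members were higher and 1 lower, in place of 4 and 2, since Ldhb, Adm and Pfkfb4 no longer entered. With the highest transcript alone, 4 members were lower, Hk3 (-7.43) and Vegfa (-1.44) joining. The other 9 settings left both counts at 4 and 2. Among them, no filter, at least 10 reads and lncRNA rows left out could not have changed the counts. Without transcripts at 0 reads in 1 library the 2 lower members were Hk2 and Vegfa (-1.53), since Pfkfb4 had no transcript left. Medians ran from -0.018 to 0.13 for glycolysis, -0.41 to -0.26 for pentose phosphate and NADPH and 0.36 to 0.51 for hypoxia genes. Of 32 members, 30 kept their side of 2-fold and 27 their sign under every setting that gave a value. Pfkp, Pfkfb3, Eno1, Pkm and Taldo1 changed sign. Several settings could not alter these tallies. The filters and the removal of lncRNA rows change no member's fold, and a pseudocount cannot change a sign. Signs were thus open to change only by rescaling and, for members with several transcripts, by the choice of transcripts. Rescaling moved all log2 folds by at most 0.099. No paired analysis was possible because each condition has 1 library, and for the same reason no replicate could be left out. Depth limits Ldhb, Adm, Egln3 and Pfkfb4, with 15 to 38 reads each over both libraries.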
